A study of Homo sapiens with 2 samples.

Results

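Zinc finger genes named ZNF and lying on chromosomes other than 19 were compared between K562 cells given doxycycline and K562 cells given none. K562 is a human chronic myeloid leukaemia line with erythroid features, and both cultures carried an inducible hairpin that targets BMI1, whose product belongs to the Polycomb complex PRC1. One culture was incubated with doxycycline for 96 h to switch the hairpin on, and the control culture received none, with no incubation time in the labels. Each group was 1 sample on 1 array, and 0.3 µg of RNA with an integrity number of 10 was labelled from each. No sample here carried doxycycline without the hairpin, or a hairpin against another target. Silencing of BMI1, doxycycline itself and any other difference between the 2 cultures therefore cannot be told apart, and no p-value, SD or SE can be given for any difference below. The labels do not say whether the line was 1 clone or a pool.

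The members were the genes whose probe set carried exactly 1 symbol made of ZNF and digits, whose annotated chromosome was not 19, and whose higher log2 value of the 2 samples was at least 6. Of 439 such genes on the array, 221 lay on chromosome 19 and 218 elsewhere, and 187 of the 218 passed the floor of 6, out of 13471 genes of all kinds that passed it. The other 31 were under the floor and are not described further. The members were chosen by their name, their chromosome and their measured level (the higher log2 value), so the levels are a description only. The difference was not part of this rule, but the set was chosen with earlier results of these data known. The share of members higher with doxycycline, given below, is therefore a description too and not an independent finding. Passing depended on 1 sample in 3 members, 1 with doxycycline only and 2 without it only. Just inside the floor were ZNF648, with a higher value of 6.01, and ZNF185, with 6.05. Just outside it were ZNF157, with 5.99, and ZNF827, with 5.90. The label fitted the members by construction, but ZNF is a naming series: ZNF185, for example, is known as a LIM domain protein rather than a DNA-binding factor.

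Most proteins of this family hold tandem Cys2-His2 zinc fingers, small folds that each read a few bases of DNA. Many also carry a KRAB domain, which recruits TRIM28 and, through it, the histone methyltransferase SETDB1 and HP1 proteins, and so silences transposable elements and nearby genes. A smaller set has a SCAN domain, used for pairing with other SCAN proteins. Chromosome 19 holds the largest clusters of KRAB genes, and the rest of the family is spread over small clusters and single genes on the other chromosomes. Members without KRAB have varied roles, from promoter activation to ribosome assembly and spindle assembly.

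The promoters of 4 members that later paragraphs turn on are shown first, as RefSeq gives them on GRCh38.p14, each from 250 bases before to 50 bases after the annotated start and printed 5′ to 3′ on the strand of the gene. The first 3 hold ACTACAA, part of the site known for the promoter-binding activator ZNF143, here on the reverse strand, so that capitals mark TTGTAGT, at 2 places in ZNF140. They are shown because members with these letters differed more than those without. The fourth, ZNF594, holds CCGGAAG, the core known for ETS factors, in capitals at 2 places, and is shown because that core was far more frequent among members than among all genes. That core was about as frequent in ZNF genes on chromosome 19 (43.0%, against 41.7% of members). Members with and without it had close median differences, 0.04 and 0.05.
ZNF140, chr12:133080673-133080972, plus strand: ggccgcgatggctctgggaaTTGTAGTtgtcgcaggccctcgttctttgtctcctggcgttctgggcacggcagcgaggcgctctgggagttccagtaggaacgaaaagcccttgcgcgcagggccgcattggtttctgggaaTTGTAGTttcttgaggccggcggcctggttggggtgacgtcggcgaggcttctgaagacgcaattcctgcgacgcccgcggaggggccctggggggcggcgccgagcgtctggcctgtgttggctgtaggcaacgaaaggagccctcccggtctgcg
ZNF268, chr12:133181245-133181544, plus strand: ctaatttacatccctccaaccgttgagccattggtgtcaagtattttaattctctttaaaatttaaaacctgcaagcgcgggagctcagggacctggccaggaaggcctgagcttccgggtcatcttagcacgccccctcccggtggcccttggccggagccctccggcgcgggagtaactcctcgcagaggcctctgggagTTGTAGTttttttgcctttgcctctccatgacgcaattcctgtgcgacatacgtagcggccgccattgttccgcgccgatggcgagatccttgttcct
ZNF277, chr7:112206445-112206744, plus strand: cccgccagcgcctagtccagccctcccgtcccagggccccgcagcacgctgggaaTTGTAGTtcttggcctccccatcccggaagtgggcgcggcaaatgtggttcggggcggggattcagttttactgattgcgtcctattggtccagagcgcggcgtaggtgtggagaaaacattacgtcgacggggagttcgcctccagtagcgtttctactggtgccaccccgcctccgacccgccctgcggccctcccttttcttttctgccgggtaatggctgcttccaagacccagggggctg
ZNF594, chr17:5191819-5192118, minus strand: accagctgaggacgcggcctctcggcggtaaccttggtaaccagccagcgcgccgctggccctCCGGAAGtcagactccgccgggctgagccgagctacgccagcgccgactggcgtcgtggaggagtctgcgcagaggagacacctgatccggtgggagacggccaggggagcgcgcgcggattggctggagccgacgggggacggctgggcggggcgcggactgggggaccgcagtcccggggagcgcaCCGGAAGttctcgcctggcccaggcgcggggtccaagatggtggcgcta

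Values are log2 RMA values, and a difference is doxycycline minus no doxycycline. RMA is a summary of several probes per gene after the arrays have been brought to a common distribution. The hairpin target was lower with doxycycline: its probe set, which also carries the symbol COMMD3-BMI1, read 10.00 with doxycycline against 10.84 without (-0.84). Of 16 erythroid markers fixed for K562, 10 were measured by a probe set of their own and all 10 passed the floor, at levels of 7.30 to 13.03 with doxycycline and 7.39 to 13.34 without. Of these, 9 were lower with doxycycline and 1 was higher, by 0.22, whereas 48.8% of all genes were lower. The median difference of the 10 was -0.15, and the sum of log2 values was 97.6 against 99.2. The part of these lower marker values in the differences below was not tested. Markers of other cell types had medians close to the floor, but single genes stood well above it. The 8 T and NK cell genes ran from 5.60 to 8.42 with doxycycline (median 6.25) and from 5.70 to 8.33 without (6.43). The 5 B cell genes ran from 4.33 to 6.72 with doxycycline (6.43) and from 4.37 to 6.60 without (6.46). The 7 monocyte and granulocyte genes ran from 4.82 to 8.999 with doxycycline (6.26) and from 4.92 to 8.72 without (6.04), and 5 of the 7 were higher with doxycycline, with a median difference of 0.11. The 7 fibroblast genes ran from 3.30 to 7.91 with doxycycline (6.25) and from 3.12 to 7.86 without (6.39). The part of these genes in the differences below was not tested either.

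ZNF genes outside chromosome 19 differed little between the samples, and the small differences leaned to the doxycycline side. Of the 187 members, 110 were higher with doxycycline, 74 were lower and 3 had equal values (ZNF182, ZNF250 and ZNF777). That is 58.8% higher, against 50.3% of all 13471 genes, of which 48.8% were lower. In a bulk culture, fewer cells of a type and less RNA per cell cannot be told apart. The median difference was 0.05, against 0.00177 for all genes, and the middle of the distribution ran from -0.07 to 0.15 (quartiles). No member reached 1.5-fold in either direction (0 of 187 higher and 0 of 187 lower), against 0.364% of all genes higher and 0.111% lower. At the smaller size of 1.2-fold, 15 members (8.02%) were higher and 4 (2.14%) lower, against 6.04% and 4.05% of all genes. Both shares are near the background, so the count of larger differences is not a result about these genes. In the plot of difference against level, the members lie inside the cloud of other genes over the whole range of levels.

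**Figure D1:**
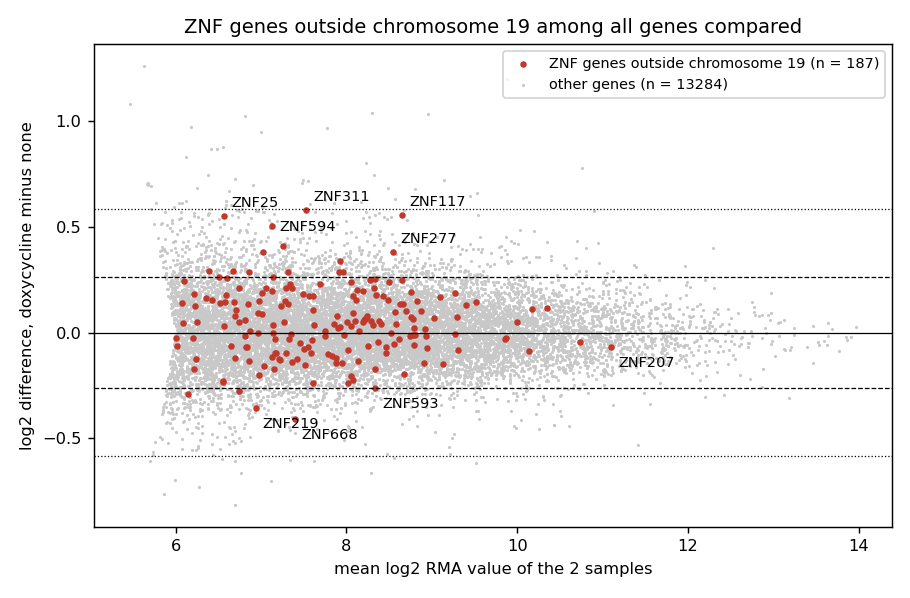
Difference (log2 RMA value with doxycycline minus without) against the mean level of the 2 samples for 187 ZNF genes outside chromosome 19 (red) and all other genes compared (grey), 1 sample per group. Dashed lines mark 1.2-fold and dotted lines 1.5-fold. The members lie between -0.41 and 0.58, inside the dotted lines.

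The members' levels ran from 5.98 to 11.06 with doxycycline, with a median of 7.78, and from 5.98 to 11.13 without, with a median of 7.75. The median mean level was 7.75, lower than the 8.07 of all genes compared. Members with a mean from 6 to under 7 had a median difference of 0.06 (28 of 45 higher), those from 7 to under 8 had 0.02 (32 of 61), those from 8 to under 9 had 0.05 (41 of 63) and those of 9 or more had 0.05 (9 of 17). All genes of the same 4 ranges had medians of 0, 0.00583, 0.00733 and 0.000448. The share of members higher with doxycycline was 62.2% in the lowest range, against 48.1% of all genes there, and 65.1% from 8 to under 9, against 51.7%. It was close to that of all genes from 7 to under 8, at 52.5% against 51.2%, and at 9 or more, at 52.9% against 50.1%.

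As a gauge of how far genes of one level scatter, the robust SD of the difference among the 1000 genes nearest in level was computed for each member. It ranged from 0.12 to 0.23, with a median of 0.15. It is a spread between genes, not an error of these samples. By that gauge 8 members (4.28%) lay more than 2 robust SD above 0 and 2 (1.07%) lay more than 2 below, against 4.10% and 2.07% of all genes.

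The brightest members were not those that differed most. ZNF207, a microtubule-binding protein that loads BUB3 at kinetochores, stood at 11.06 with doxycycline and 11.13 without. ZNF512 stood at 10.72 and 10.76. Both were slightly lower with doxycycline, by -0.07 and -0.04. ZNF330, a nucleolar protein, stood at 10.41 with doxycycline and 10.29 without. ZNF451, a SUMO ligase, stood at 10.23 with doxycycline and 10.11 without. ZNF746, a KRAB protein known as PARIS that represses PPARGC1A in neurons, stood at 10.10 with doxycycline and 10.19 without. None of these 5 reached 1.2-fold.

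The largest positive difference belonged to ZNF311, at 7.82 with doxycycline against 7.24 without, differing by 0.58 or 1.49-fold. It ranked 55 of the 13471 genes and lay just under the 1.5-fold size. ZNF311 lies in the extended major histocompatibility region of chromosome 6 and had 2 probe sets, but both held the same pair of values, so the further one adds no check. ZNF117 measured 8.93 with doxycycline against 8.38 without, differing by 0.55. Its annotated span overlaps ERV3-1, an endogenous retrovirus envelope gene, and the read-through of both. The positions of the probes were not examined, so signal from these other transcripts may be part of the ZNF117 values. ZNF25, a KRAB gene on chromosome 10, measured 6.84 with doxycycline against 6.29 without, differing by 0.55. ZNF594, whose promoter is printed above, measured 7.38 with doxycycline against 6.87 without, differing by 0.50, and its span overlaps USP6. These 4 were the members beyond 1.4-fold, and each exceeded 2 robust SD of genes at its level.

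ZNF70 on chromosome 22 followed at 7.46 with doxycycline and 7.05 without (difference 0.41). ZNF619, a KRAB gene on chromosome 3, stood at 7.22 with doxycycline and 6.84 without (0.38). ZNF84, a KRAB gene on chromosome 12, stood at 8.09 with doxycycline and 7.75 without (0.34). ZNF654, ZNF684, ZNF76 and ZNF711 completed the 12 largest, each at 0.29. The span of ZNF654 overlaps CGGBP1. ZNF76, a paralogue of ZNF143 and a promoter-binding activator, stood at 8.10 with doxycycline and 7.81 without. ZNF711, an X-linked member related to ZFX that works with the histone demethylase PHF8, stood at 8.06 with doxycycline and 7.77 without.

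ZNF277 also belonged to the 12. Its mouse orthologue is known to bind the Ink4a/Arf locus and to recruit BMI1 there, which makes it the member with the most direct known tie to the hairpin target. It measured 8.73 with doxycycline against 8.35 without, differing by 0.38 or 1.30-fold, ranking 288 of 13471. A dimmer probe set of ZNF277, under the floor, measured 5.33 with doxycycline against 5.57 without, differing by -0.24. The direction thus rests on the brighter probe set, and the mean over both probe sets gave 0.07.

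The largest negative difference belonged to ZNF668, at 7.19 with doxycycline against 7.60 without, differing by -0.41 or 1.33-fold lower. It ranked 103 from the low end, and its span overlaps ZNF646, itself a member at -0.15. ZNF219 measured 6.76 with doxycycline against 7.11 without, differing by -0.36, and overlaps ARHGEF40 and TMEM253. ZNF674, an X-linked KRAB gene, stood at 6.002 with doxycycline and 6.29 without (-0.29). ZNF407 stood at 6.60 with doxycycline and 6.88 without (-0.28). These 4 were the members at least 1.2-fold lower, and 3 of them had means under 7. ZNF593, the human counterpart of the yeast factor Bud20 that accompanies the large ribosomal subunit out of the nucleus, stood at 8.21 with doxycycline and 8.47 without (-0.26), at the edge of 1.2-fold. Its span overlaps ZNF593OS.

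The remaining 7 of the 12 largest negative differences lay between -0.24 and -0.20. ZNF335, a nuclear coactivator found with H3K4 methyltransferase complexes, stood at 7.89 with doxycycline and 8.13 without. ZNF142, which overlaps BCS1L and PLCD4, stood at 7.49 with doxycycline and 7.72 without. ZNF639 stood at 7.96 with doxycycline and 8.19 without. ZNF687, which forms a complex with ZNF592 and ZMYND8 and overlaps PI4KB, stood at 7.95 with doxycycline and 8.16 without, and ZNF592 itself differed by -0.08. ZNF683, known as Hobit in tissue-resident lymphocytes, stood at 6.87 with doxycycline and 7.07 without. ZNF624 and ZNF620, both KRAB genes near the floor, differed by -0.23 and -0.23. In the plot of the 24 extremes, the upper 12 differ by more than the lower 12, rank for rank.

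**Figure D2:**
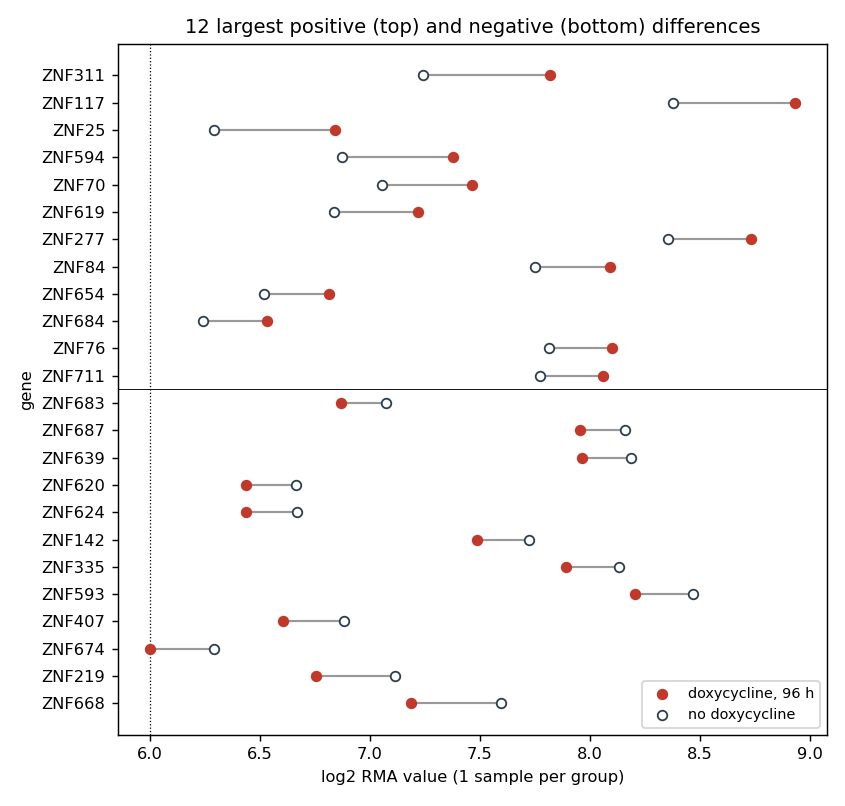
Levels (log2 RMA value) with doxycycline (filled) and without (open) for the 12 members at each end of the differences, 1 sample per group. The dotted line is the floor of 6. The longest bars are those of ZNF311 (0.58), ZNF117 (0.55) and ZNF25 (0.55) in the upper set and of ZNF668 (-0.41) in the lower set.

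By domain, 91 members were listed as KRAB proteins from general knowledge, since neither the array files nor the reference tables used here give protein domains. Of these, 54 were higher and 34 lower with doxycycline, with a median difference of 0.05. Of the 91 members in neither the KRAB nor the SCAN list, 51 were higher and 40 lower, with a median of 0.03. At 1.2-fold, 8 KRAB members were higher and 1 lower, and 6 of the unlisted members were higher and 3 lower, against 6.04% and 4.05% of all genes. The medians of both sets were close, and the difference between the sets was not tested. The 5 members with SCAN and no KRAB (ZNF24, ZNF174, ZNF232, ZNF397 and ZNF449) were all higher, by 0.05 to 0.29, with a median of 0.13. The 9 with both domains split 4 higher and 5 lower, with a median of -0.01.

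The genes of the machinery that KRAB proteins use stayed close to all genes as a group, which was not tested. Of 27 such genes that passed the floor, of 29 listed, 15 were higher and 12 lower, with a median of 0.02. That is 55.6% higher, against 50.3% of all genes. TRIM28, the KRAB corepressor, measured 11.44 with doxycycline against 11.55 without, differing by -0.11. SETDB1, the H3K9 methyltransferase it recruits, measured 8.94 with doxycycline against 8.71 without, differing by 0.23. CBX5, which encodes HP1 alpha, was the only one of the 27 past 1.2-fold, at 11.33 with doxycycline and 11.07 without (0.26). At that size 3.70% of the list was higher and 0% lower, against 6.04% and 4.05% of all genes. UHRF1, which couples DNA methylation to replication, differed by -0.20, ATRX, a chromatin remodeller of heterochromatin, by 0.17, CHD3, a remodeller of the NuRD complex, by 0.16, and TASOR, a subunit of the HUSH silencing complex, by 0.15.

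By role, 12 promoter factors and activators split 6 higher and 6 lower, with a median of 0.02. ZNF76 (0.29), ZNF219 (-0.36) and ZNF335 (-0.24) were the furthest from 0. ZNF143 itself measured 8.92 with doxycycline against 8.82 without, differing by 0.10. ZNF410, which is known for activating CHD4 and thereby keeping fetal globin silenced, and whose span overlaps FAM161B, measured 8.74 with doxycycline against 8.75 without, differing by -0.02. CHD4 differed by -0.06.

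Among 13 corepressor and chromatin partners, 8 were higher and 5 lower, with a median of 0.05. ZNF277 (0.38), ZNF687 (-0.20) and ZNF217 (0.19) led. ZNF217, an oncogene product that binds CtBP corepressors, stood at 9.37 with doxycycline and 9.18 without. Of 5 blood and erythroid factors, 3 were higher and 2 lower, with a median of 0.05. ZNF521, a cofactor of haematopoietic progenitors, stood at 8.40 with doxycycline and 8.15 without (0.25). ZNF16, reported to act in erythroid and megakaryocytic differentiation, stood at 6.64 with doxycycline and 6.501 without (0.14). ZNF367 differed by 0.05.

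The 11 members that act on RNA, ribosomes, ubiquitin or the spindle split 4 higher and 7 lower, with a median of -0.04. That is 36.4% higher, against 50.3% of all genes, in a small list, and none of the 11 reached 1.2-fold. ZNF593 (-0.26), ZNF830 (0.24) and ZNF330 (0.12) were the furthest from 0. ZNF598, the ubiquitin ligase that marks collided ribosomes, differed by -0.10, and ZNF622, a maturation factor of the large ribosomal subunit, by -0.06. ZNF207, described above as the brightest member, differed by -0.07. Of all 187 members, 44.4% lay within 0.1 of 0, against 49.6% of all genes.

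By chromosome, all 8 members on chromosome 6 and all 8 on chromosome 12 were higher with doxycycline, with medians of 0.14 and 0.16. These chromosomes were singled out after the values were seen, and 50.3% of all genes were higher. On chromosome 6 the differences ran from 0.06 for ZNF322 to 0.58 for ZNF311, with ZNF76 at 0.29 and the KRAB gene ZNF184 at 0.24. Chromosome 16, with the most members, had 14 of 27 higher and a median of 0.01, and chromosome 7 had 13 of 23 higher and a median of 0.04. Chromosome 20 had the lowest median, -0.07 with 3 of 7 higher, followed by chromosome 5 at -0.04 with 1 of 5 higher. Chromosome 22 had the highest, 0.20, but held only ZNF70 and a member near 0.

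**Figure D3:**
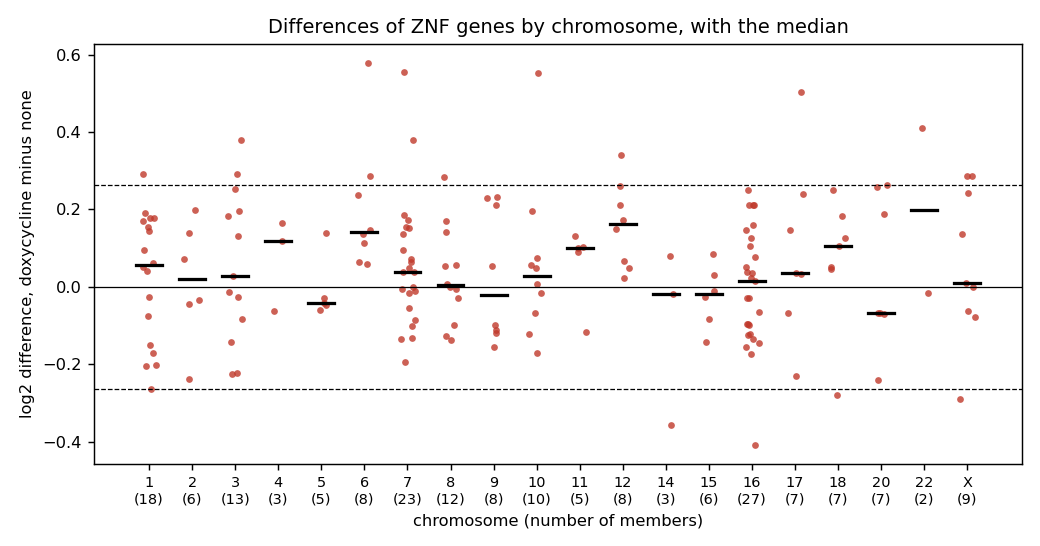
Difference (log2, doxycycline minus none) of each of the 187 members by chromosome, with the number of members in brackets and the median as a bar. Dashed lines mark 1.2-fold. All 8 points lie above 0 on chromosome 6 and on chromosome 12, whereas the 27 on chromosome 16 lie on both sides.

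ZNF genes often sit next to each other, as copies of a common ancestor, and neighbours can share probe sequence. Runs of at least 4 members with at most 5 other protein-coding genes between neighbours were found in the RefSeq order, 9 in all with 53 members. The run on chromosome 12 that comprises ZNF26, ZNF84, ZNF140, ZNF10 and ZNF268 had the highest median, 0.21, and 5 of 5 members were higher. ZNF26 stood at 7.47 with doxycycline and 7.26 without. ZNF140, which overlaps ZNF891, stood at 6.64 with doxycycline and 6.38 without. ZNF268 stood at 7.70 with doxycycline and 7.52 without. ZNF10, whose KRAB domain is widely used as a repressor tool, was close to the floor and measured 6.28 with doxycycline against 6.23 without. All 5 are KRAB genes, and ZNF84 was the only one past 1.2-fold. They are part of the 8 chromosome 12 members described above, so these counts overlap. ZNF140 and ZNF268 are counted again below among the members with ACTACAA.

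The lowest run lay on chromosome 16 and comprised ZNF205, ZNF213, ZNF200, ZNF263 and ZNF174, with a median of -0.10 and 2 of 5 members higher. ZNF263 stood at 7.87 with doxycycline and 8.02 without, and ZNF174 at 7.29 with doxycycline and 7.17 without. The other 7 runs had medians from -0.03 to 0.10. In the chromosome 7 run that holds ZNF117, the other 5 members lay between -0.13 and 0.15, so the difference of ZNF117 was not shared by its neighbours.

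Of the 187 members, 9 had more than 1 probe set. In 7 of these the further probe set had the same sign, but ZNF311 and ZNF718 held identical values at both. The signs differed for ZNF277, given above, and for ZNF138, at 0.09 on the brighter probe set and -0.49 on a dimmer one that stood at 5.79 with doxycycline and 6.28 without. Agreement between probe sets was therefore a check of direction for 5 members only, ZNF322, ZNF425, ZNF503, ZNF618 and ZNF678. ZNF678 differed by 0.18 and 0.19, and ZNF618 by -0.11 and -0.16. ZNF322 differed by 0.06 and 0.02, and ZNF503 by 0.06 and 0.11. The sizes were furthest apart for ZNF425, at 0.06 on the brighter probe set and 0.37 on a dimmer one. Another protein-coding gene overlapped the span of 40 members.

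Promoter windows were held by the RefSeq table for 156 of the 187 members, with 211 windows in all, and for 10601 of the genes compared. A gene was counted as holding an element when any of its windows did, on either strand. CCGGAAG, the ETS core, was in 65 of 156 members (41.7%), in 58 of 135 ZNF genes on chromosome 19 (43.0%) and in 20.4% of all genes. ACTACAA was in 13 of 156 members (8.33%), in 10 of 135 on chromosome 19 (7.41%) and in 4.21% of all genes. CCAAT, the CAAT box, was in 78 of 156 members against 41.7% of all genes, and GGGCGG, the GC box bound by SP factors, in 67.3% against 74.8%. TGATGNAA, close to the element known for ATF4 and C/EBP dimers, was in 2 members (1.28%), against 2.64% of all genes. CACGTG, the E-box of MYC and related factors, was in 7.05% against 12.3%. TGACGTCA, the cyclic AMP response element, was in 5.13% against 3.66%. The promoters of members and of all genes had similar CpG content. Counted in the window of each gene with the most CpG, the median over genes was 26 against 28.

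The 13 members with ACTACAA had a median difference of 0.17, and 11 of them were higher with doxycycline. The 143 members without it had a median of 0.04, with 79 higher. With the mean over probe sets, which changes ZNF277, the median of the 13 was 0.11. At a floor of 8, which only 5 of the 13 passed, the median of those 5 was 0.10. The 13 were led by ZNF277, ZNF140, ZNF189 (0.23), ZNF169 (0.21), ZNF32 (0.19) and ZNF268 (0.17), and the lower ones were ZNF343 (-0.07) and ZNF185 (-0.06). Among all 446 genes with ACTACAA, the median was 0.00149 and 50.7% were higher, so the shift was not seen over all genes with these letters. The ETS core went with no such split: members with it had a median of 0.04 and those without it 0.05. Members with CCAAT had a median of 0.08 (51 of 78 higher) and those without it 0.00484 (39 of 78 higher). Members with the GC box had a median of 0.05 (65 of 105 higher) and those without it -0.03 (25 of 51 higher). Members with TATAAA, the TATA box, had a median of 0.10 (7 of 13 higher) and those without it 0.04 (83 of 143 higher). Splits of some size were thus found for several of the elements. 10 elements were searched, this comparison was made after the values were seen, and a match in a window is a description of letters, not a bound site.

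**Figure D4:**
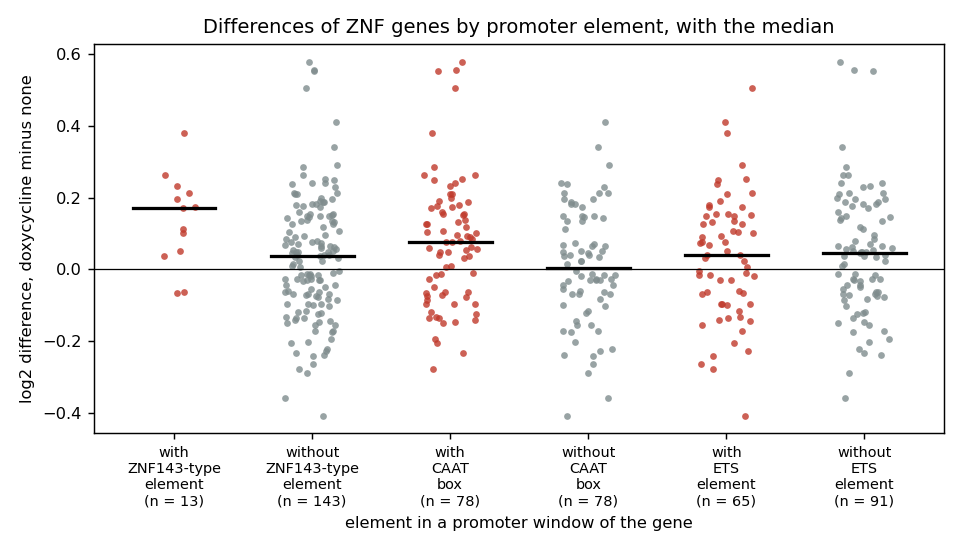
Difference (log2, doxycycline minus none) of the 156 members with a promoter window, split by whether a window holds each of 3 elements, with the median as a bar. The median is 0.17 with the ZNF143-type element (n = 13) and 0.04 without it (n = 143), and 0.04 with the ETS element (n = 65) and 0.05 without it (n = 91).

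ZNF genes on chromosome 19 leaned further the same way. Of 147 past the floor, 103 (70.1%) were higher with doxycycline, with a median of 0.09, against 58.8% and 0.05 outside chromosome 19. At 1.2-fold, 26 (17.7%) were higher and 4 (2.72%) lower, against 8.02% and 2.14% outside chromosome 19 and 6.04% and 4.05% of all genes. The difference between the 2 sets was not tested. Other zinc finger families named by current symbol had medians of 0.04 for 36 ZBTB genes (26 higher), 0.02 for 14 ZSCAN genes (8 higher), 0.13 for 6 ZKSCAN genes (5 higher) and 0.04 for 10 ZFP genes (5 higher). Genes other than ZNF had a median of 0. Over the members, the difference had Spearman's rho of 0.05 with genomic span and -0.03 with mean level. It was -0.02 with the highest CpG count of a gene's windows, over 156 members. The same rho with span was 0.18 over 13457 genes of all kinds, and all these points share the same 2 arrays. The median span was 23.1 kb for the members and 23.97 kb for all genes.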

How the data were processed

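Expression was measured on 1 Affymetrix array per culture. Per the submitters' processing notes, RMA in Affymetrix Expression Console (version 1.1.1) gave the deposited values. These deposited values, made by the authors with RMA, are read here as log2, the usual RMA scale, which their span of 1.61 to 14.6 allows. The design text names another Affymetrix array than the platform annotation, and the annotation was used. RMA shrinks differences of dim probe sets and removes a shift shared by all genes. The number of arrays limits the precision.

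Of 33297 probe sets, 19460 carried 1 symbol, and 19429 of these matched RefSeq (GRCh38.p14) by Entrez ID. A gene took its probe set with the highest mean, and genes whose higher value was under 6 were left out. With 1 sample per group no test was made: the text gives values, medians and counts at 1.2-fold and 1.5-fold beside those of all genes. The named genes were the 12 members at each end, the 5 brightest, up to 3 of each role list, ZNF277, ZNF410 and ZNF207, and the highest and lowest run; others were named after their values were seen. Members and lists were chosen with earlier results of these data known. KRAB and SCAN members were listed from general knowledge, because the planned search of protein sequences was not run. Steps were tested on simulated data. Python 3.11.15, pandas 2.3.3 and statsmodels 0.14.6 were used.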

Additional observations from a re-analysis of the deposited data

How the results depend on the processing

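No paired analysis was possible because each group held 1 sample, and for the same reason no replicate could be left out. Over the alternatives (other floors, the mean over probe sets, centring, quantile normalization, loess trends on level or span, current symbols with a last letter, and, added after seeing the data, members free of overlapping genes), the median of the members stayed above 0 and within 1.5 times of 0.05. None of the 35 members named by the rule changed sign (0 reversed of 291 values). The other floors only drop genes and leave each remaining difference unchanged, so no sign could change there. The mean over probe sets can change only members with unlike probe sets, and centring adds 1 constant to every difference. Many of the 291 values were therefore no check of direction. Over all 187 members, ZNF138 turned to -0.20 with the mean over probe sets, against 0.09 as reported, and at most 3 members, all within 0.0301 of 0, changed sign under any of centring, quantile normalization or the trends. Counts followed the floor. Members at least 1.2-fold lower, 4 as reported, numbered 9 of 218 with no floor and 7 of 202 at a floor of 5. They numbered 2 of 145 at 7, 0 of 84 at 8 and 2 of 147 without overlapping genes. The numbers of all genes compared at other floors are not given here, so these counts are not set beside a share of all genes. At a floor of 8, 84 members were compared, 53 were higher and 5 were at least 1.2-fold higher. ZNF311 alone (1 member) passed 1.5-fold after centring and after subtraction of the span trend. For all genes with no floor, 1343 were at least 1.2-fold higher, 1103 lower, 77 at least 1.5-fold higher and 66 lower. At a floor of 5, 32 were at least 1.5-fold lower. At 7, 317 were at least 1.2-fold lower, 26 at least 1.5-fold higher and 9 lower. At 8 the 4 counts were 327, 179, 16 and 4. The KRAB median was 0.0943 at a floor of 8. The median of members in neither list was 0.0122 with no floor, 0.018 after the span trend and 0.0519 without overlapping genes, and that of the KRAB machinery 0.0113 at a floor of 8 and 0.0126 after the level trend. The median of the 13 members with ACTACAA was 0.11 with the mean over probe sets, and that of the 5 of them past a floor of 8 was 0.10. At a floor of 8 the chromosome 12 run kept ZNF84 only, at 0.34. The search for KRAB and SCAN by protein sequence and the set with few fingers were not run.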

Other observations

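ZNF genes outside chromosome 19 that the naming rule left out gave a few further values. Of 19 genes with a last letter in their symbol, 13 were higher with doxycycline, with a median of 0.08. ZNF204P, a transcribed pseudogene on chromosome 6, measured 7.08 with doxycycline against 6.65 without, differing by 0.43. ZNF385B measured 6.01 with doxycycline against 6.46 without, differing by -0.45, and its paralogues ZNF385A (-0.25) and ZNF385C (-0.21) were lower too. ZNF280A, ZNF280B, ZNF280C and ZNF280D were higher by 0.06 to 0.15. ZNF518A and ZNF518B, of which ZNF518B is known to bind the methyltransferase EHMT2, were higher by 0.13 and 0.09.

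Of 10 probe sets past the floor that carried several symbols with a ZNF outside chromosome 19, 2 stood out, both annotated to ZNF75D and SMIM10L2B-AS1. They held the same values, 6.54 with doxycycline and 5.88 without, a difference of 0.66, which is larger than that of any of the 187 members. Both passed the floor of 6 only through the doxycycline sample, where they were higher. They share 1 pair of values and count as 1 measurement, and the gene they measure cannot be told apart.

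Equal values in both samples occurred in 3 of the 187 members and in 115 of the 13471 genes.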
